A study of Mus musculus with 26 samples.

Results

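Arntl, Clock and Npas2 encode the positive arm of the mammalian circadian clock, and their messenger RNA was followed in mouse liver under a regular and a shifting light schedule. The members were the 3 rows carrying these symbols among 36883 gene names in the deposited count table. All 3 passed the filter on low counts.

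BMAL1, the protein made from Arntl, pairs with CLOCK or with its close relative NPAS2 through shared bHLH and PAS domains. The pairs bind E-box sequences and switch on the Per and Cry genes, whose proteins return to the nucleus and block the pair, while REV-ERB and ROR receptors repress and activate Arntl through ROR elements. In liver all of these transcripts cycle over the day, with Arntl and Npas2 running against the phase of the Per genes and Clock cycling weakly.

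Messenger RNA of the whole liver was sequenced from 26 Eµ-MYC mice. Every animal carried the transgene, in which the immunoglobulin heavy chain enhancer drives MYC in B-lineage cells, and no group without it was part of the design. The 4 groups were 8 females and 6 males under 12:12 lighting (12 h of light, 12 h of dark) and 8 females and 4 males after 8 weeks of chronic jet lag lighting, the comparison the study was set up to make. The age and health of the mice, the shift schedule and the hour of liver collection are not stated in any source used here. For these cycling genes a change of level and a change of phase cannot be told apart.

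Libraries held 45364552 to 50242014 counts, and levels are given as CPM, the count divided by the library sum and scaled to a common size. Albumin took up to 22.1% of the counts, and all 10 hepatocyte markers were detected. In 8 libraries the B cell receptor gene Cd79a reached 8 CPM or more (14.5 to 144 CPM), against 1.28 to 2.95 CPM in the other 18. The 12 B-lineage markers, all found in the table, summed to 50.9 to 442 CPM in the 8 and to 7.63 to 19.0 CPM in the 18, where Igll1 was at 0 in all 5 female jet lag and all 4 male 12:12 libraries. Other lists moved with Cd79a. Macrophage and Kupffer cell markers summed to 492 to 2365 CPM against 259 to 566 CPM, and neutrophil markers to 6.73 to 411 CPM against 1.13 to 6.87 CPM. The 10 hepatocyte markers summed to 167471 to 254009 CPM against 140787 to 182852 CPM, and within 12:12 females, 12:12 males and jet lag males the high Cd79a libraries stood above all others of their group. T and NK cell markers summed to 1.62 to 5.58 against 1.73 to 6.02 CPM. In whole liver, fewer cells of a type and less RNA per cell cannot be told apart.

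The genes lie apart in the genome (GRCm38, RefSeq positions). Arntl is on the plus strand of chr7:113178471-113314126, Clock on the minus strand of chr5:76209868-76305603 and Npas2 on the plus strand of chr1:39193702-39363240. The sequences that tie Arntl to the REV-ERB and ROR loop are 2 elements in an annotated untranslated part of Arntl, near starts that lie inside the gene as positioned above, read from the RefSeq promoter table of GRCm38.p6 (250 bases before to 50 after each start). Capitals mark the letters AGGTTA and AGGTCA, searched on both strands.
Arntl element 1, chr7:113207497-113207521, plus strand: tcggaaagtAGGTTAgtggtgcgac
Arntl element 2, chr7:113207533-113207557, plus strand: gcagaaagtAGGTCAgggacggagg
Of 32851 windows in that table, 16.26% held AGGTCA, 8.49% held AGGTTA and 1.647% held both. In the windows of Clock the only match was 1 AGGTCA on the opposite strand, and the Npas2 window held neither. The E-box letters CACGTG, found in 7.15% of all windows, and the D-box letters TTANGTAA, found in 2.323%, were in no window of the 3 genes. These matches describe letters and not binding.

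Per kilobase of exon, which allows levels of different genes to be set side by side, Clock had the highest median of the 3 under 12:12 lighting and Npas2 the lowest. In females under 12:12 lighting the group medians were 0.6245 CPM per kb for Clock, 0.116 for Arntl and 0.0130 for Npas2. After jet lag they were 1.31 for Clock, 1.14 for Arntl and 0.135 for Npas2. In males the medians under 12:12 lighting were 0.835 for Clock, 0.193 for Arntl and 0.0108 for Npas2, and after jet lag Arntl at 2.22 stood above Clock at 1.52, with Npas2 at 0.292. The ranges of Arntl and Clock overlapped in all 4 groups, so those neighbours were not apart beyond the spread, and those of Npas2 and Arntl were separate in 12:12 females and overlapped in the other 3 groups.

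**Figure D1:**
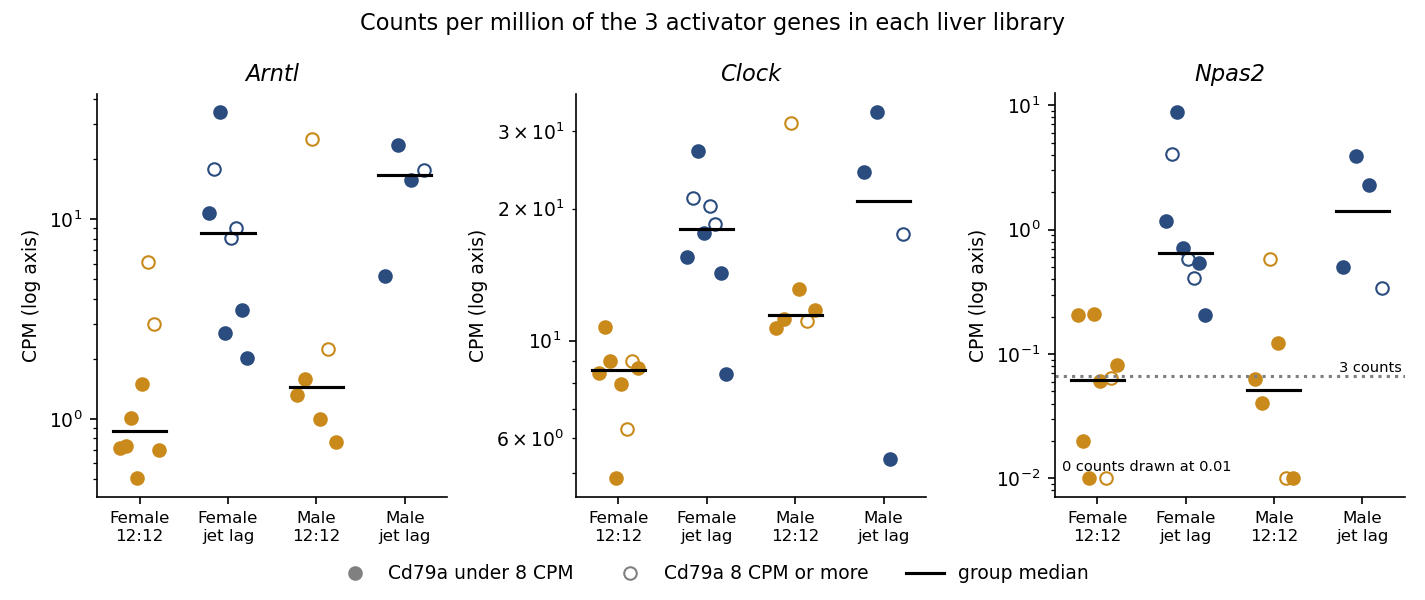
CPM of Arntl, Clock and Npas2 (log axis, 1 panel a gene) in each of 26 liver libraries by sex and lighting; each point is 1 library, open points have Cd79a of 8 CPM or more, bars are group medians, the dotted line marks 3 counts and libraries with 0 counts are drawn at the foot of the axis. The jet lag medians of all 3 genes lie above the 12:12 medians of the same sex, and male 3 under 12:12 lighting stands above its group for every gene.

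Npas2, the partner of BMAL1 that can stand in for CLOCK, was close to the detection limit under 12:12 lighting and rose after jet lag. In the 8 females under 12:12 lighting its level ran from 0 through a median of 0.0623 to 0.210 CPM, from 0 to 10 counts a library. In the 8 females after jet lag it ran from 0.204 through 0.645 to 8.83 CPM, from 10 to 425 counts. All but 1 of the jet lag females were above every 12:12 female, and that one, female 8, held 10 counts, as did the highest 2 of them.

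In the 6 males under 12:12 lighting Npas2 ran from 0 through 0.0516 to 0.580 CPM. The 4 males after jet lag, numbers 5 to 8, held 0.502, 3.92, 2.30 and 0.339 CPM. Among the 12:12 males only number 3, at 28 counts, reached the range of the jet lag males. The other 5 held 6 counts or fewer, and 4 of all 14 libraries under 12:12 lighting held none, which allows up to 0.0661 CPM for counting error only.

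Over both sexes, 12 jet lag libraries against 14 under 12:12 lighting, the Npas2 difference was a log2 fold change of 4.30 (SE 0.74, 95% interval 2.78 to 5.82, 19.7-fold, edgeR adjusted p = 0.00371), and all 12 jet lag libraries were above the 12:12 median of their sex. Across all genes this comparison called 132 of 16892, or 0.781%, 75 of them higher, with a median log2 fold change of 0.02 over all genes. Npas2 had the 18th smallest p. It passed the threshold in all 26 fits that left out 1 library each, with log2 fold changes of 3.74 to 4.83. The authors' deposited table lists Npas2 at a log2 ratio of 12:12 over jet lag of −4.26 with an adjusted p of 4.51e-06.

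Arntl, which encodes BMAL1, the partner that both pairs need, had a wide range of levels under each lighting. In females under 12:12 lighting it ran from 0.504 through a median of 0.876 to 6.09 CPM, and after jet lag from 2.02 through 8.56 to 34.5 CPM. In males under 12:12 lighting it ran from 0.772 through 1.45 to 25.3 CPM, and the 4 jet lag males held 5.19, 23.5, 15.7 and 17.7 CPM. The groups overlapped in both sexes, although all 12 jet lag libraries were above the 12:12 median of their sex. Male 3 under 12:12 lighting was higher than all but 1 of the jet lag libraries.

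The Arntl difference over both sexes was a log2 fold change of 2.29 (SE 0.58, 95% interval 1.09 to 3.50, 4.89-fold), which missed the threshold with an edgeR adjusted p of 0.0636. The call turned on single libraries. Without male 3 under 12:12 lighting the log2 fold change was 2.97 with an edgeR adjusted p of 0.00104, without female 6 under 12:12 lighting it was 2.62 with 0.0349, and without jet lag female 8 it was 2.38 with 0.0462. DESeq2 gave 2.31 with an adjusted p of 0.00319 and limma-voom 2.57 with 0.0119 on the same libraries. The authors' deposited table lists Arntl at a log2 ratio of 12:12 over jet lag of −1.97 with an adjusted p of 0.0469.

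Clock, which encodes the E-box binding partner with acetyltransferase activity, had the smallest fold change of the 3. In females it ran from 4.86 through a median of 8.57 to 10.7 CPM under 12:12 lighting and from 8.38 through 18.0 to 27.0 CPM after jet lag. Of the jet lag females 7 of 8 were above every 12:12 female, and female 8 at 8.38 CPM was below the 12:12 median. In males it ran from 10.7 through 11.5 to 31.4 CPM under 12:12 lighting, and the 4 jet lag males held 24.2, 33.2, 5.38 and 17.5 CPM. Male 7 after jet lag had the lowest Clock level of all males, beside 15.7 CPM of Arntl.

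The Clock difference over both sexes was a log2 fold change of 0.85 (SE 0.22, 95% interval 0.39 to 1.31, 1.80-fold, edgeR adjusted p = 0.0740), with 10 of 12 jet lag libraries above the 12:12 median of their sex. It passed in 4 of the 26 fits that left out 1 library. These were the fits without male 3 under 12:12 lighting (0.97, edgeR adjusted p = 0.00873), without jet lag male 7 (0.98, 0.0146), without jet lag male 8 (0.92, 0.0374) and without jet lag female 8 (0.91, 0.0429). In the other direction, the fit without jet lag male 6 gave 0.755 with an edgeR adjusted p of 0.216. DESeq2 gave 0.86 with an adjusted p of 0.0120, and limma-voom an adjusted p of 0.156. In the authors' deposited table Clock has a log2 ratio of 12:12 over jet lag of −0.715 and an adjusted p of 0.178.

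Antisense and other genes overlap the 3 loci, and no source used here gives the strand setting of the counting. The highest level of any that is in the count table was 0.281 CPM for Gm7467, antisense to the start of Clock, and 0.395 CPM for Gm33721, a long non-coding RNA within Arntl.

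Within each sex no member passed in the edgeR fit over all 26 libraries. In females edgeR called 0 of 16892 genes, or 0%, with 772 below 0.05 before adjustment. In the same comparison 55 passed by DESeq2 and 0 by limma-voom. The female log2 fold changes were 4.60 for Npas2 (SE 0.98, adjusted p = 0.118), 2.66 for Arntl (SE 0.75, 0.328) and 1.09 for Clock (SE 0.28, 0.213). By DESeq2 all 3 passed in females, with adjusted p-values of 0.00250 for Npas2, 0.0347 for Arntl and 0.0277 for Clock. With the 16 female libraries alone edgeR gave Clock 1.10 with an adjusted p of 0.0430.

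In males edgeR called 2 genes (0.0118%), neither of them a member. The male log2 fold changes were 3.85 for Npas2 (SE 1.13, adjusted p = 0.250), 1.67 for Arntl (SE 0.89, 0.557) and 0.45 for Clock (SE 0.35, 0.660). The Clock value in males rested on jet lag male 6, without which it was −0.0058. Without male 3 under 12:12 lighting the male values were 3.52 for Arntl (edgeR adjusted p = 0.0521), 5.29 for Npas2 (0.0726) and 0.76 for Clock (0.358).

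Whether the sexes responded differently was tested as the female minus the male lighting difference. The edgeR test called 0 genes (0%, with 902 below 0.05 before adjustment), and limma-voom and DESeq2 also called 0. The differences were 0.99 for Arntl (95% interval −1.41 to 3.40, adjusted p = 0.847), 0.64 for Clock (−0.29 to 1.57, 0.814) and 0.74 for Npas2 (−2.22 to 3.71, 0.903). These intervals include both no difference and differences of more than 1 log2 unit. Without male 3 under 12:12 lighting the sign turned for Arntl (−0.86) and Npas2 (−0.69).

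Between the sexes under 12:12 lighting edgeR called 622 genes (3.68%), and under jet lag 324 (1.92%), with no member among them. Under 12:12 lighting Clock was 0.96 log2 units lower in females (log2 fold change −0.96, SE 0.29, adjusted p = 0.0679), and in these ranges only the highest female, number 2 at 10.7 CPM, reached the lowest male. Leaving out jet lag male 7 (adjusted p = 0.0243) or jet lag male 6 (0.0473) brought the edgeR test past the threshold, as did DESeq2 (0.0257), while leaving out male 3 under 12:12 lighting gave −0.65 with an adjusted p of 0.209. Arntl differed by −1.68 (SE 0.77, adjusted p = 0.260) and Npas2 by −0.79 (SE 1.05, 0.754). Both turned positive without male 3 under 12:12 lighting, at 0.17 and 0.64. Under jet lag the female minus male values were −0.69 for Arntl (adjusted p = 0.721), −0.32 for Clock (0.668) and −0.045 for Npas2 (0.989). Of these, Clock turned to 0.15 without jet lag male 6, and the Npas2 sign turned in 8 of 26 fits, up to 0.76 without that male.

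By median CPM both jet lag groups stood above both 12:12 groups for all 3 genes. For Arntl the order was jet lag males (16.7), jet lag females (8.56), 12:12 males (1.45) and 12:12 females (0.876). For Npas2 it was jet lag males (1.40), jet lag females (0.645), 12:12 females (0.0623) and 12:12 males (0.0516). For Clock it was jet lag males (20.9), jet lag females (18.0), 12:12 males (11.5) and 12:12 females (8.57). Every pair of neighbours in these 3 orders overlapped in range.

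The libraries with Cd79a of 8 CPM or more were 2 females and 2 males under 12:12 lighting and 3 females and 1 male after jet lag. They were picked by a measured gene, so their values are listed and not tested. Arntl under 12:12 lighting was 6.09 and 3.00 CPM in females 6 and 7 and 25.3 and 2.23 CPM in males 3 and 5. Each of these was above the highest of the 10 other libraries under 12:12 lighting, which held 0.504 to 1.58 CPM. How many of all genes separate these libraries in the same way was not counted, so the separation cannot be called particular to Arntl. After jet lag the 4 were 17.8, 8.04 and 9.08 CPM in females 2, 5 and 6 and 17.7 CPM in male 8, inside the range of 2.02 to 34.5 CPM in the 8 other jet lag libraries.

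Clock did not separate the same libraries. Under 12:12 lighting it was 6.31, 9.01, 31.4 and 11.1 CPM in females 6 and 7 and males 3 and 5, of which only male 3 was outside the range of 4.86 to 13.1 CPM in the other 10. After jet lag it was 21.1, 20.3, 18.4 and 17.5 CPM, inside the range of 5.38 to 33.2 CPM in the other 8. Npas2 in the 12:12 set was 0, 0.0639, 0.580 and 0 CPM against 0 to 0.210 CPM, and after jet lag 4.06, 0.583, 0.406 and 0.339 CPM against 0.204 to 8.83 CPM. The part of B-lineage, macrophage or neutrophil RNA in these levels was not tested.

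**Figure D2:**
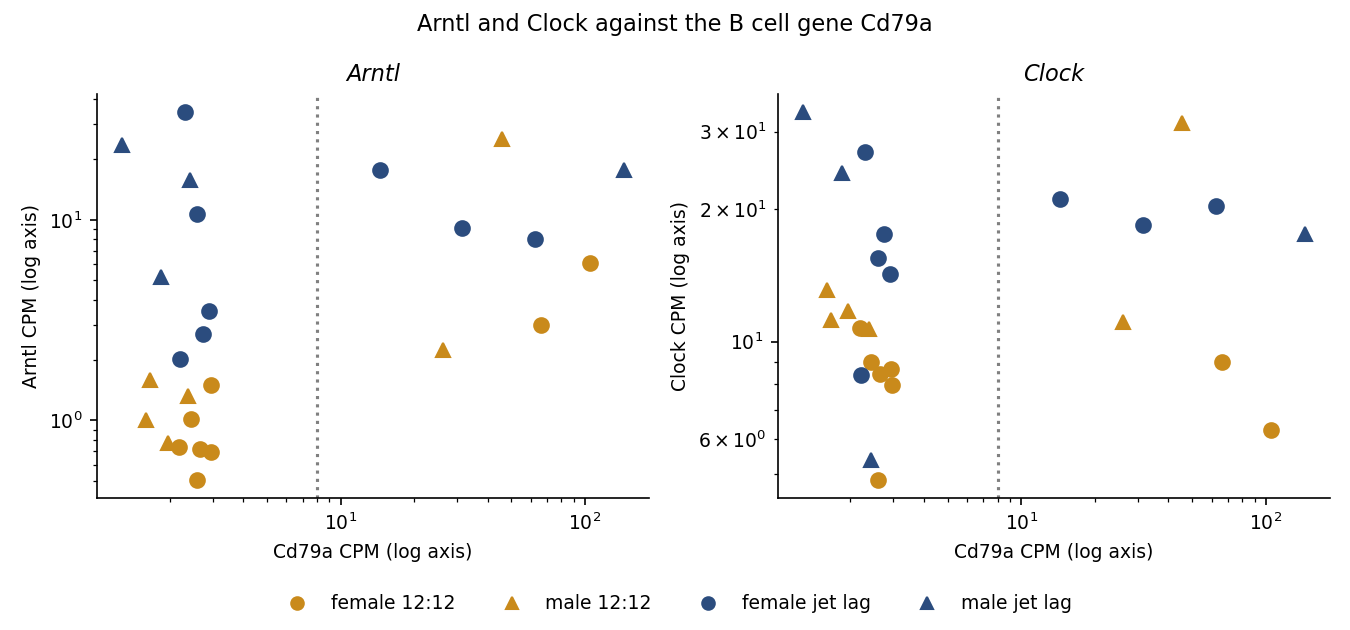
CPM of Arntl (left) and Clock (right) against CPM of the B cell gene Cd79a in 26 libraries, both axes logarithmic; circles are females, triangles males, and the dotted line is at 8 CPM of Cd79a. Left of the line every jet lag library has more Arntl than every 12:12 library (lowest 2.02 against highest 1.58 CPM), and right of it the 4 libraries under 12:12 lighting reach 2.23 to 25.3 CPM; Clock overlaps on both sides.

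In the 18 libraries with less Cd79a, the lighting groups did not overlap for Arntl. Such separation was seen for 44 of 16892 genes, or 0.26%, and for 1 gene, or 0.00592%, when all 26 libraries were used. The Arntl log2 fold change in the 18 was 3.61 with an edgeR adjusted p of 0.00138, in a fit that called 381 of 16431 genes (2.32%). Within males of this set Arntl passed as well (3.70, edgeR adjusted p = 0.0466), with 4 libraries against 3. Within females of this set it missed the threshold at a similar size (3.56, edgeR adjusted p = 0.0820), with 6 libraries against 5. For Npas2 the fit over both sexes gave 4.76 (adjusted p = 0.00278), and the groups met at 10 counts, 0.210 CPM in 12:12 female 4 against 0.204 CPM in jet lag female 8. For Clock it gave 0.88 (adjusted p = 0.0720), with 6 of the 8 jet lag libraries above every 12:12 library.

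The balance among the 3 transcripts was compared as a ratio within each library, which does not depend on library scaling. After adding 2 counts, Npas2 stood at a median of 1.22 counts per 100 counts of Clock in 12:12 females (0.448 to 5.15) and at 4.16 in jet lag females (2.42 to 32.8). In males it stood at 0.847 under 12:12 lighting (0.366 to 1.97), and jet lag males ran from 2.17 through a median of 7.07 to 43.1. The female ranges overlapped and the male ranges did not. The mean log2 ratio was higher after jet lag by 2.63, or 6.18-fold (two-sided exact permutation test within sex over 2702700 regroupings, p = 2.48e-05, adjusted over 3 ratios 7.44e-05). The size depended on the added count, since 4 libraries under 12:12 lighting held no Npas2 count, and with 0.5 added counts the difference was 3.44 log2 units.

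Arntl per 100 counts of Clock had a median of 11.4 in 12:12 females (7.21 to 96.6) and 44.5 in jet lag females (15.5 to 128). In males the median was 13.5 under 12:12 lighting (6.92 to 80.5) and 85.8 after jet lag (21.6 to 291). Jet lag male 7 gave the 291, with more Arntl than Clock, as did jet lag female 3 with 128, and jet lag male 8 held 100.8. The mean log2 ratio was higher after jet lag by 1.79, or 3.46-fold (exact permutation p = 0.00173, adjusted 0.00260), while the ranges overlapped in both sexes.

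Npas2 per 100 counts of Arntl had medians of 7.14 in 12:12 females, 14.1 in jet lag females, 5.20 in 12:12 males and 12.6 in jet lag males. The log2 difference of 0.84, or 1.79-fold, missed the threshold (exact permutation p = 0.139, adjusted 0.139). With 0.5 in place of 2 added counts it was 1.62 with an adjusted p of 0.0293 by the same exact test, so for this ratio the choice of added count decided the call. The first 2 ratios passed in every fit that left out 1 library. Without the 8 libraries with high Cd79a the 3 log2 differences were 2.86, 2.28 and 0.58, with exact adjusted p-values of 0.000557, 0.000371 and 0.209.

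**Figure D3:**
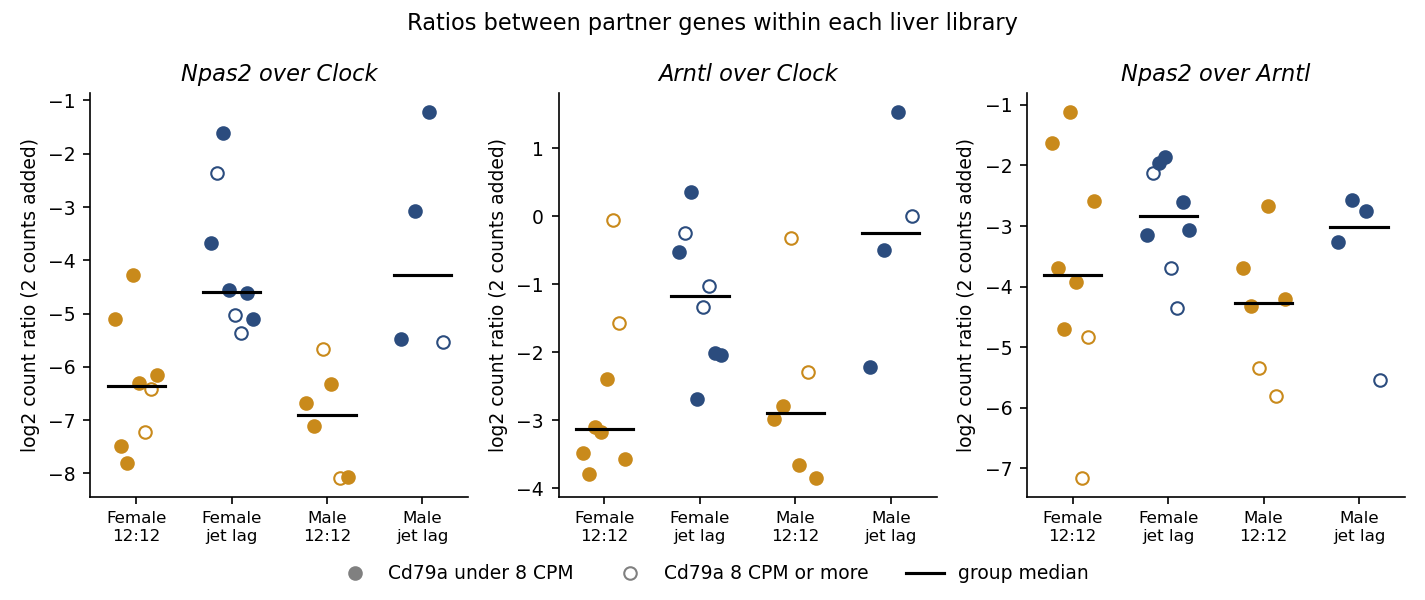
Log2 ratio of the counts of 2 members within each of 26 libraries (2 counts added), for Npas2 over Clock, Arntl over Clock and Npas2 over Arntl; points are libraries by sex and lighting, open points have Cd79a of 8 CPM or more, and bars are group medians. Npas2 over Clock and Arntl over Clock are higher after jet lag by 2.63 and 1.79 log2 units on average, and the 12:12 libraries with the highest Arntl over Clock are open points.

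Libraries of one group differed widely, and whether that spread was larger after jet lag was tested on absolute deviations from the group mean of log2 CPM. No gene passed (limma, 0 of 16892, 0%, 1362 at an unadjusted p under 0.05), against 5 without the high Cd79a libraries. The mean deviation of Arntl was 1.07 log2 units under 12:12 lighting and 1.05 after jet lag, a difference of −0.017 (SE 0.34, limma adjusted p = 0.997). For Clock it was 0.35 and 0.53 (difference 0.21, SE 0.15, adjusted p = 0.741), and for Npas2 0.98 and 1.53 (0.58, SE 0.31, 0.648). The Arntl value depended on the high Cd79a libraries, without which the difference was 0.93 (adjusted p = 0.166). In the females with less Cd79a the SD of Arntl log2 CPM was 0.53 under 12:12 lighting (n = 6) and 1.67 after jet lag (n = 5), and in the males 0.45 (n = 4) and 1.26 (n = 3).

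The 3 genes were also compared library by library within each group that held at least 6. These 9 relations in log2 CPM share library and depth, and p-values are from permutation tests, adjusted over the 9. In jet lag females Arntl and Npas2 had a Pearson r of 0.861 (p = 0.00456, adjusted 0.0411) and a Spearman rho of 0.786 (p = 0.0279, adjusted 0.126). Arntl and Clock had an r of 0.801 (permutation p = 0.0143, adjusted 0.0488) and a rho of 0.714 (p = 0.0576, adjusted 0.134). Clock and Npas2 had an r of 0.777 (permutation p = 0.0217, adjusted 0.0488) and a rho of 0.786 (p = 0.0279, adjusted 0.126). Without females 3 and 8, the libraries farthest from the median, r was 0.615, 0.438 and 0.374, so the relations rested in large part on those animals. Female 3 was the highest and female 8 the lowest for all 3 genes.

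In 12:12 males Clock and Npas2 had an r of 0.894 (permutation p = 0.0194, adjusted 0.0488; rho 0.754, p = 0.106, adjusted 0.190), which fell to 0.472 over 4 libraries without males 3 and 5. Arntl had an r of 0.778 with Npas2 (permutation p = 0.103, adjusted 0.174; rho 0.319, p = 0.544, adjusted 0.817) and 0.886 with Clock (permutation p = 0.161, adjusted 0.207; rho −0.09, p = 0.919, adjusted 0.919). Without males 3 and 6 both turned, to −0.97 and −0.997, over 4 libraries. In 12:12 females no relation passed. There r was −0.60 for Arntl and Npas2 (permutation p = 0.116, adjusted 0.174; rho −0.71, p = 0.0595, adjusted 0.134), −0.24 for Arntl and Clock (permutation p = 0.583, adjusted 0.583; rho −0.12, p = 0.793, adjusted 0.892) and −0.26 for Clock and Npas2 (permutation p = 0.539, adjusted 0.583; rho −0.18, p = 0.672, adjusted 0.864). Without the 2 farthest libraries these were −0.52, 0.47 and −0.38.

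The rest of the clock was read from lists in the same comparison over both sexes, set beside the 0.781% of genes called and the median of 0.02 over all genes. Among 8 repressors of the BMAL1 pairs, 2 fell, 0 rose and 6 did not pass, with a median log2 fold change of −1.10. Those that fell were Per2, a core repressor (−1.38, SE 0.28, edgeR adjusted p = 0.0133), and Ciart, a repressor of CLOCK and BMAL1 (−2.21, SE 0.51, 0.0347). Per2 passed in all 26 fits that left out 1 library and Ciart in 10, with an adjusted p up to 0.0747 without jet lag male 6. Without the high Cd79a libraries Per2 (edgeR adjusted p = 0.0582) and Ciart (0.0570) missed the threshold and Per1 (0.0491) and Bhlhe40 (0.0446) passed.

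Among 8 output genes with E-boxes 6 fell, 0 rose and 2 did not pass, with a median of −1.18. The deubiquitinase gene Usp2 had a log2 fold change of −1.90 (SE 0.34, edgeR adjusted p = 0.00518). The cell cycle kinase gene Wee1 had −1.40 (SE 0.25, 0.00471), and Alas1, for the first enzyme of heme synthesis, −1.47 (SE 0.31, 0.0167). Gys2, the liver glycogen synthase, had −1.09 (SE 0.19, 0.00477), Nampt, which makes an NAD precursor, −0.87 (SE 0.15, 0.00338) and Tef, a PAR bZIP factor, −1.002 (SE 0.24, 0.0490). Tef passed in 6 of the 26 fits that left out 1 library, with an adjusted p up to 0.112 without jet lag male 6. The other 5 passed in all 26. Without the high Cd79a libraries Alas1 missed the threshold (0.0539) and Hlf, another PAR bZIP factor, passed (0.0190).

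The receptors that act on the Arntl elements shown above are described for the REV-ERB genes, neither of which passed. Nr1d2, for REV-ERB beta, had −0.66 (SE 0.23, edgeR adjusted p = 0.297). Nr1d1, for REV-ERB alpha, had 0.54 (SE 0.30, 0.745), with its sign opposite to the Per genes.

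Genes for proteins that modify or assist the pair were also below the threshold. Of 9 clock kinases and ubiquitin ligases 0 passed (median 0.05), with Btrc at 0.25 (SE 0.15, edgeR adjusted p = 0.781) and Csnk1d at 0.05 (SE 0.05, 0.994). Of 11 co-regulators 0 passed (median −0.03), with the acetyltransferase genes Ep300 at −0.16 (SE 0.11, 0.894) and Crebbp at −0.10 (SE 0.11, 0.999). Of 13 other bHLH-PAS genes 6 could be tested and 0 passed (median −0.16), with Epas1 at −0.23 (SE 0.15, 0.863) and Arnt at −0.18 (SE 0.12, 0.864). Arntl2, the paralog of Arntl, had a log2 fold change of 0.00 (SE 0.14, 0.999) at a mean of 1.05 CPM.

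**Figure D4:**
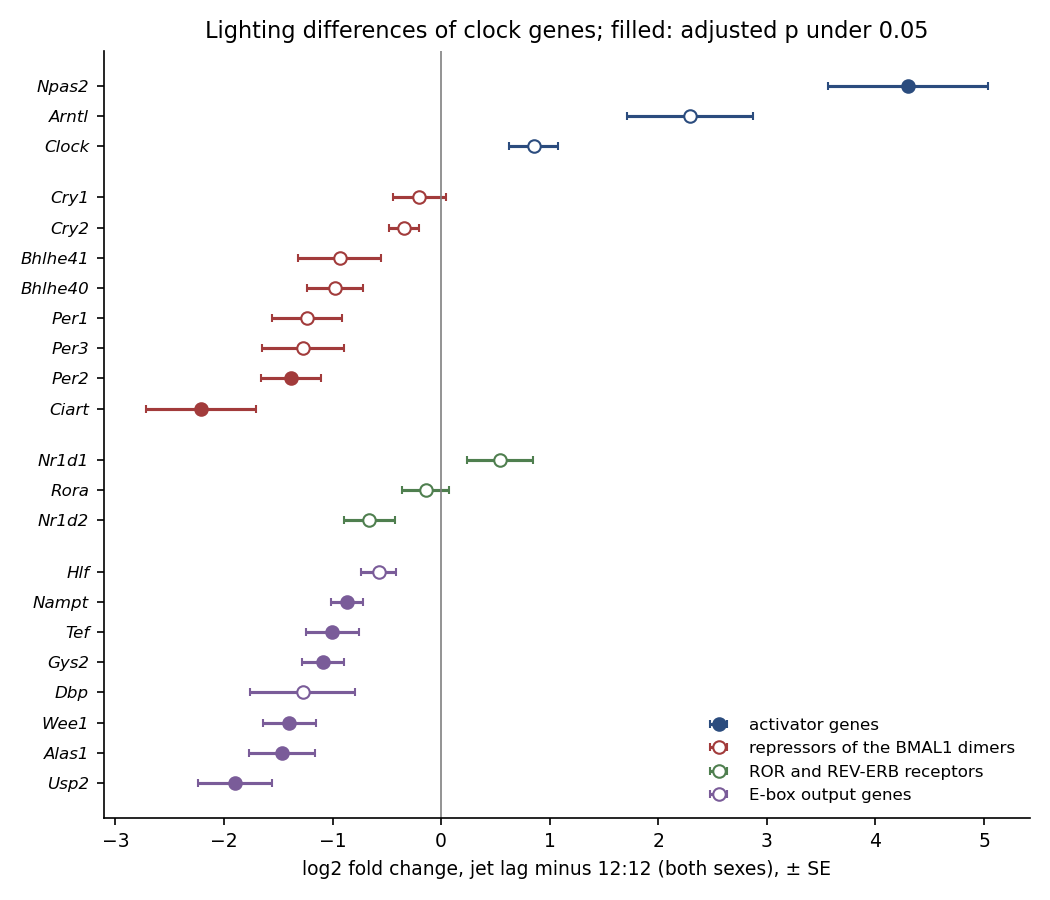
Log2 fold change, jet lag minus 12:12 over both sexes, of the 3 activator genes, 8 repressors, 3 ROR and REV-ERB receptors and 8 E-box output genes; bars are 1 SE of the edgeR fit and filled points have an adjusted p under 0.05. Npas2 at 4.30 is the filled point to the right of 0, and the 8 filled points to the left belong to repressors and output genes.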

How the data were processed

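Liver RNA-seq of 26 libraries was used. Per the submitters' processing notes, STAR, DESeq2 and the mm10 build were used, with no version, counting tool or strand setting named there. The authors deposited expected counts per gene name without normalization (36930 lines, 36883 names, summed by name). In them 0.015 stood for 0 in 45.82% of cells, and the 1.44% of cells that were not whole (tolerance 1e-06) were rounded. The authors' deposited DESeq2 table of log2 fold changes with log2 standard errors, p-values and adjusted p-values is quoted for the 3 genes only, and the deposited normalized table was not used. CPM is the count divided by the library sum and multiplied by 1 constant for all libraries, and 3 counts stand for at most 0.0661 CPM. No 2 libraries of a group were copies (chi-square per degree of freedom at least 31.5).

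Genes passing filterByExpr by group (count minimum 10) were fitted with edgeR 4.0.16 (R 4.3.3; TMM, glmQLFit, glmQLFTest). Lighting over both sexes used sex as a covariate, and the other comparisons used the 4 group means. P-values were adjusted over 16892 genes by Benjamini and Hochberg, with a threshold of 0.05. The SE is the log2 fold change divided by the square root of F, and 95% intervals use residual degrees of freedom. Spread was tested with limma 3.58.1 (prior count 2), and ratios and correlations with permutation tests in Python 3.11.15 and scipy 1.17.1. The edgeR tests of lighting and the test of spread were checked on simulated data, and those of the interaction and of sex were not. Replicates are separately numbered mice per the labels, and whether the numbers pair groups was checked by the correlation of deviations from group means. Alternatives were another scaling, no filter, DESeq2 1.42.0, limma-voom, a replicate block, libraries of 1 sex, each library left out, and omission of the 8 libraries with high Cd79a.

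The members, the lists of clock, family and cell type genes, and the tests were chosen with earlier results of these data known. Named genes were the members, in each list those past the threshold and at least 2 with the smallest p, and for each member the 3 genes with the highest and the 3 with the lowest Spearman rho among genes with a mean of at least 1 CPM. Nr1d1, Arntl2, Per1, Bhlhe40 and Hlf were added after their values were seen. Some genes that these rules would name are not reported here.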

Additional observations from a re-analysis of the deposited data

Results flagged for a closer look

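In 24 sets of values, 4 groups by 3 levels and 3 ratios, the highest or lowest library was compared with its neighbours by Dixon's criterion. For normally distributed values it flags about 1 group in 20 by chance. Levels were taken as CPM without logarithm and the sets share libraries, so that rate is only a rough guide here. It flagged 5. In male 3 under 12:12 lighting all 3 genes stood above the other 5 males of the group, with Arntl at 25.3 CPM, Clock at 31.4 CPM and Npas2 at 0.580 CPM. This library held 45.6 CPM of Cd79a, and the part of that in its clock gene levels was not tested. In female 6 under 12:12 lighting Arntl was at 6.09 CPM, with 105 CPM of Cd79a, 6.31 CPM of Clock and no count of Npas2. In jet lag female 3, with 2.31 CPM of Cd79a, Npas2 was at 8.83 CPM, beside the highest Arntl level of all 26 libraries.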

How the results depend on the processing

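Npas2 over both sexes passed under every alternative run. DESeq2 size factors in place of TMM called 0 genes in males. Without the 8 high Cd79a libraries 381 genes were called over both sexes, 13 in females, 219 in males, 1357 and 1902 between the sexes under 12:12 and jet lag lighting, and 5 for spread; Arntl was 3.61, the interaction turned to −0.14 for Arntl and −0.80 for Npas2, the 12:12 sex difference of Npas2 to 0.61 and the spread of Arntl to 0.93. In that set the correlations were 0.47 for Arntl and Clock in 12:12 females, and 0.953, 0.792 and 0.925 in jet lag females, where 5 libraries remained and none passed (exact permutation, adjusted p = 0.1, 0.233 and 0.15). Without TMM, r of Clock and Npas2 was 0.769 in jet lag females and 0.883 in 12:12 males, past no threshold. Libraries of 1 sex alone gave 14 calls in females and 0 in males. DESeq2 called 274 genes over both sexes, 55 in females, 94 in males, 977 and 650 between the sexes, with Arntl at 2.31 and Clock at 0.86; limma-voom gave Arntl 2.57 and turned the interaction to −0.087 for Arntl and −0.061 for Npas2. Spread turned to 0.034 for Arntl around group medians and to −0.033 for Npas2 with a prior count of 0.5. Npas2 over Arntl was 1.62 with 0.5 added counts. The causes were not tested.

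Leaving out 1 library at a time gave 70 to 244 calls over both sexes (70 without jet lag female 3, 244 without jet lag male 8), 0 to 13 in females, 0 to 106 in males, 346 to 848 and 194 to 967 between the sexes under 12:12 and jet lag lighting. Arntl ran from 1.94 to 2.97 and Clock from 0.755 to 0.979 over both sexes, and in males Clock from −0.0058 to 0.76, Arntl from 1.32 to 3.52 and Npas2 from 3.07 to 5.29. The interaction ran from −0.86 to 1.59 for Arntl and −0.69 to 1.54 for Npas2, the 12:12 sex difference from −2.27 to 0.17 and −1.17 to 0.64, the jet lag sex difference from −0.61 to 0.15 for Clock and −0.98 to 0.76 for Npas2, and the spread of Arntl from −0.17 to 0.27.

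The check on replicate numbers showed no clear pairing of the groups, and it cannot exclude one. Over 10 same-numbered pairs the correlation of deviations ran from −0.38 to 0.60, with 6 above 0.1, and 1 correlated best with its own number. That 1 was the pair of females 6, at 0.60, both of them high Cd79a libraries. With the number as a block, Clock was 1.13 (adjusted p = 0.00703), 19 genes were called in females and 4 in males, Arntl over Clock in female pairs was 1.45 (exact adjusted p = 0.0820), and the interaction was −0.52, −0.28 and −5.97 for Arntl, Clock and Npas2; sex differences could not be estimated. Depth limits Npas2 most, with 0 to 28 counts a library under 12:12 lighting.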

Other observations

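Genes whose pattern was most like each member were ranked by Spearman rho of log2 CPM over 26 libraries after removal of group means, among 12699 genes with a mean of at least 1 CPM. These are descriptions, since all points share library and depth. For Arntl the closest were Slc45a3 (rho 0.896), Net1 (0.839) and the DNA methyltransferase gene Dnmt3b (0.806), and the most opposite were Klhl21 (−0.87), Stam2 (−0.85) and G430095P16Rik (−0.85). For Clock the closest were Ept1 (0.839), Calu (0.834) and 4932438A13Rik (0.822), and the most opposite Msantd2 (−0.78), Miip (−0.77) and Dlgap4 (−0.76). For Npas2 they were Blcap (0.799), Sowahb (0.784) and Itga5 (0.774), and Lcp1 (−0.73) and Rps6ka5 (−0.72). Slc45a3 with Arntl was 0.895 in the 18 libraries with less Cd79a, while Dnmt3b was 0.653. The members were not among each other's closest genes: rho was 0.273 for Arntl and Clock, 0.409 for Arntl and Npas2 and 0.399 for Clock and Npas2, with 577 genes nearer to Arntl than Npas2 was.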
